A study of Kandelia obovata with 24 samples.

Results

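Of the 33344 unigenes listed for leaves of the mangrove *Kandelia obovata*, 150 were selected here because their expression differed most between replicate leaves of the same group while their group means stayed close together. They were chosen by their values. A unigene needed a mean of at least 5 TPM (the abundance of a transcript, scaled for its length, relative to all others in the library) over the 24 libraries, and its highest group mean of log2(TPM + 1) had to lie less than 1.5 above its lowest. The unigenes that met both limits were ranked by the pooled within-group SD, the square root of the mean of the 8 group variances of log2(TPM + 1). The 150 highest were taken after the 100 most abundant unigenes and 12 hub unigenes of the study had been left out. The leaves came from planted wild-type seedlings during a natural frost, in 8 groups of 3 RNA-Seq libraries. The groups were CK, the control without abscisic acid (ABA), and ABA-100, the seedlings assigned to a spray of 100 mg L−1 ABA, each at 10.2, -4.1, -5.3 and 9.7 ℃. The spray, ABA in ethanol with Tween-80, followed the sampling at 10.2 ℃, so the ABA-100 (10.2 ℃) leaves had not yet received it. The groups are named here as the libraries are labelled. Some group names differ between those labels and the volcano plots of the study, and the spread inside a group does not depend on which name the whole group carries. Comparisons of ABA-100 with CK, and of temperatures, do depend on the names and hold only for the groups as labelled.

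A unigene is a gene-level cluster of transcripts that Trinity assembled from the reads without a genome. ABA is a hormone that plants make more of under drought, salt and cold, and it changes the transcription of many stress-responsive genes. Leaves of plants treated alike still differ in age, light, water status and cell composition, and transcripts that respond fast to such conditions are known to vary between individual plants. In an RNA-Seq table the spread between replicates also holds counting error, which weighs more for a weakly expressed or short transcript, and the uncertainty of dividing reads between near-identical copies. Reads per unigene were not used here, so these parts of the spread cannot be told apart. In a bulk leaf sample, fewer cells of a type and less RNA per cell cannot be told apart either. No annotation was used here for any of the 150 members, so they are described by their Trinity identifiers, without the prefix that all identifiers share, and no role in the leaf is given.

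Of the 33344 unigenes, 12367 reached a mean of 5 TPM, and 11510 of these also met the limit on the group means. Among them were 93 of the most abundant unigenes and 2 hub unigenes, which left 11415 for the ranking. The pooled SD of the 150 members ran from 0.48 to 1.94 log2 units with a median of 0.59. The 11358 other unigenes that met both limits on level and group means had a median of 0.10. A further 234 unigenes had a spread as high as the members but group means too far apart. The last members inside the rule were DN12786_c2_g3, DN25798_c0_g1 and DN8913_c1_g4, with a pooled SD of 0.482, 0.481 and 0.480. Just outside lay DN10067_c0_g1, DN8049_c0_g1 and DN6492_c0_g2 with 0.479, 0.477 and 0.477, so the rule divided a continuous range. The members had a lower median level than the other unigenes, at 12.2 TPM against 24 TPM. Their mean levels reached from 5.27 to 102 TPM, and 36.7% of them were under 10 TPM against 17.7% of the others.

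The libraries were first compared over the 11358 unigenes that are not members. The library totals were all near 1000000 TPM, which is set by the unit, and each library had 25523 to 27061 unigenes above 0. In 5 of the 8 groups, 1 library stood apart from the other libraries of its group. They were replicate 3 of CK at 10.2, -4.1, -5.3 and 9.7 ℃ and replicate 1 of ABA-100 (9.7 ℃). The root mean square difference between the closest pair of libraries was 0.131 to 0.149 log2 units in the 8 groups. The remaining library lay 1.53 times as far from that pair in CK (10.2 ℃), 2.04 times in CK (-4.1 ℃), 1.67 times in CK (-5.3 ℃), 1.65 times in CK (9.7 ℃) and 1.81 times in ABA-100 (9.7 ℃), against 1.10 to 1.23 times in the other 3 ABA-100 groups. The limit of 1.4 was set after these values were seen. Of the 24 libraries, 23 were nearest to a library of their own group. The exception was CK (-4.1 ℃) replicate 3, which lay 0.277 log2 units from CK (-5.3 ℃) replicate 2 and 0.304 from the nearest library of its own group. No library was moved. Replicate numbers are those of the library titles. In ABA-100 (9.7 ℃) the column codes order the libraries differently, since the code of title replicate 1 ends in 3 and those of title replicates 2 and 3 end in 1 and 2. The code ending in 3 is 1 number shorter than the others, so reading it as replicate 3 is uncertain. By that reading each of the 5 libraries would carry the last number of its group. In CK (9.7 ℃) that number is 4, since the codes of title replicates 1, 2 and 3 end in 1, 2 and 4. Since the members were selected on within-group spread, several results below are also given without these 5 libraries. The shares of correlated pairs, the values for clusters and the choice in a single treatment are given only with them.

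Without the 5 libraries the members fell into 2 kinds. For 23 members, called library-bound here, the pooled SD over the remaining 19 libraries dropped to between 0.044 and 0.237 log2 units, with a median of 0.12. Their median over all 24 libraries had been 0.57. The other 127 members, called scattered here, kept a pooled SD between 0.34 and 2.19, with a median of 0.59 against 0.61 over all libraries. No member lay between 0.237 and 0.335, and the dividing value of 0.25 was placed in this gap after the values were seen. Over the same 19 libraries the other unigenes had a median of 0.072. Between the lowest and the highest library, the 2 kinds spanned similar ranges, with a median difference of 2.49 log2 units in the library-bound and 2.51 in the scattered members. When the rule was applied to the 19 libraries alone, it kept 89 of the 150 members, namely 89 of the 127 scattered members and 0 of the 23 library-bound members. The 0 of 23 was fixed by the split.

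**Figure D1:**
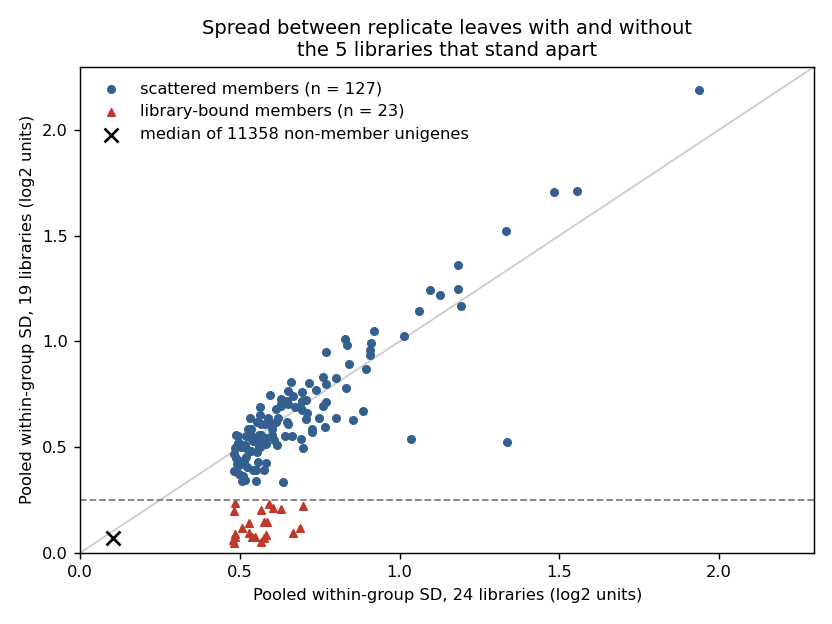
Pooled within-group SD of log2(TPM + 1) of each of the 150 members over all 24 libraries (horizontal axis, log2 units) and over the 19 libraries that remain without those that stand apart (vertical axis, log2 units). Blue points are the 127 scattered members, red triangles the 23 library-bound members, the cross is the median of the 11358 other unigenes, the grey line marks equal values and the dashed line is at 0.25. The red triangles lie at 0.237 or below on the vertical axis, and the blue points at 0.335 or above.

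By the way the kind was defined, most of the spread of the library-bound members lay in the groups that hold the 5 libraries. CK (-4.1 ℃) held 41.8% of their within-group sum of squares, CK (-5.3 ℃) 16.6%, CK (9.7 ℃) 14.8%, ABA-100 (9.7 ℃) 12.8% and CK (10.2 ℃) 11.1%. The other 3 ABA-100 groups held between 0.83% and 1.23% each. CK (-4.1 ℃) was the group with the largest spread for 18 of the 23. In CK (-4.1 ℃) replicate 3, 8 of the 23 lay more than 1 log2 unit above the mean of replicates 1 and 2, and 11 lay more than 1 below it. In CK (9.7 ℃) replicate 3 the counts were 4 above and 9 below, in CK (10.2 ℃) replicate 3 they were 6 and 1, in CK (-5.3 ℃) replicate 3 they were 10 and 0, and in ABA-100 (9.7 ℃) replicate 1 they were 6 and 0. Of the 23, 8 were higher in all 4 CK replicate 3 libraries than in the mean of the other replicates, 1 was lower in all 4 (DN4870_c0_g3), and 14 were higher in some and lower in others. The same replicate number therefore did not go with the same direction in most of these unigenes.

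Members whose deviations from their group means went together over the 24 libraries were grouped by average linkage of Pearson correlations, and 2 sets of at least 8 members were found. Set A had 16 members, 11 of them library-bound, and set B had 11 members, all library-bound. The remaining library-bound member was DN6221_c0_g3. The median correlation between 2 members was 0.73 in set A and 0.76 in set B. These correlations are descriptions over 24 libraries that share the 5 libraries apart and one scaling to a common total. Without the 5 libraries, the largest set among the same 150 members had 7 members. In set A, all 16 members were lower in CK (-4.1 ℃) replicate 3 than in the mean of replicates 1 and 2, with a median difference of -1.89 log2 units. All 16 were also lower in CK (9.7 ℃) replicate 3, by a median of -1.16, while 15 of 16 were higher in CK (-5.3 ℃) replicate 3, with a median of 0.56. In set B, all 11 members were higher in CK (10.2 ℃) replicate 3, with a median of 1.04, and all 11 in ABA-100 (9.7 ℃) replicate 1, with a median of 1.16. In CK (-4.1 ℃) replicate 3, 9 of the 11 were higher (median 1.46), and in CK (-5.3 ℃) and CK (9.7 ℃) replicate 3 it was 10 of 11 (medians 1.30 and 0.76).

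**Figure D2:**
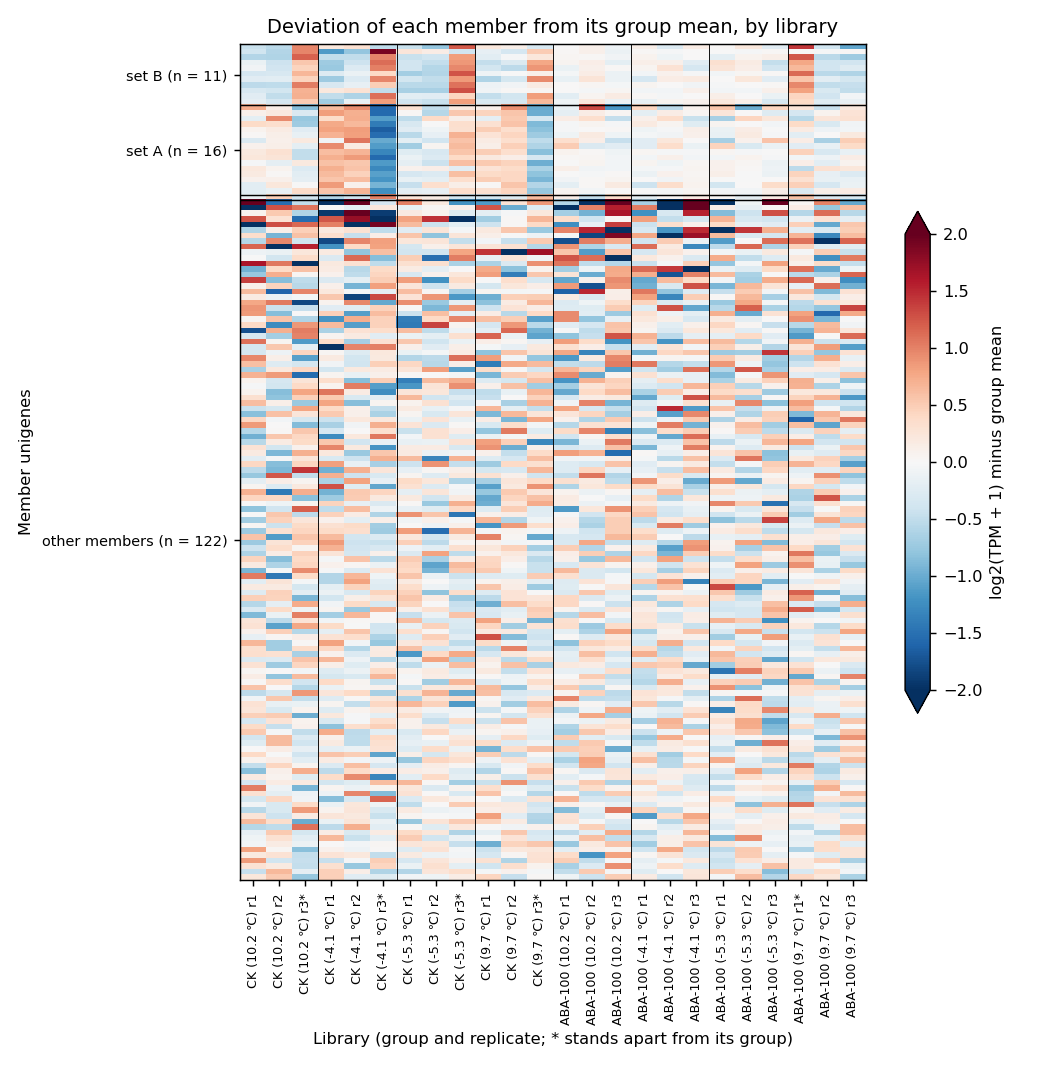
Deviation of log2(TPM + 1) from the group mean for each of the 150 members (rows) in each of the 24 libraries (columns, r for replicate, a star for the 5 libraries that stand apart). Rows are set B, set A, the library-bound member DN6221_c0_g3 in the narrow unlabelled strip, and the 122 other members in order of pooled SD. Red is above and blue below the group mean, and colours are capped at 2 log2 units. Set A is uniformly blue in CK (-4.1 ℃) replicate 3, with a mean deviation of -1.29, and set B is red in CK (10.2 ℃) replicate 3, with a mean of 0.74, while the rows below show no common column.

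The leading members of set A show the pattern. DN11610_c0_g1 was measured in CK replicates 1, 2 and 3 at 22, 23.5 and 17.7 TPM at 10.2 ℃, 19, 19.5 and 2.68 TPM at -4.1 ℃, 9.13, 10.1 and 13.7 TPM at -5.3 ℃, and 18.3, 16.3 and 6.77 TPM at 9.7 ℃. In ABA-100 the same unigene stood at 22, 22.4 and 22.7 TPM at 10.2 ℃, 12.7, 13.4 and 14.7 TPM at -4.1 ℃, 10.5, 12.9 and 11.5 TPM at -5.3 ℃, and 28.1, 23.3 and 24 TPM at 9.7 ℃. Its replicates 1 and 2 of CK (-4.1 ℃) were thus close together and replicate 3 was 2.46 log2 units lower, whereas in the ABA-100 groups at 10.2 and -4.1 ℃ the 3 libraries nearly coincided. DN6442_c0_g2 had CK values of 22, 22.4 and 18.2 TPM at 10.2 ℃, 17.1, 17.8 and 4.39 TPM at -4.1 ℃, 12.5, 12.1 and 17.9 TPM at -5.3 ℃, and 28.6, 26.8 and 10.2 TPM at 9.7 ℃. Its ABA-100 values were 18.2, 19.5 and 19.8 TPM at 10.2 ℃, 15.5, 14.6 and 16.1 TPM at -4.1 ℃, 18.3, 18.2 and 18.5 TPM at -5.3 ℃, and 30.8, 22.4 and 22.2 TPM at 9.7 ℃. It had the smallest spread of all members once the 5 libraries were left out, 0.044 log2 units. DN10929_c0_g1 was at 12.3, 13.5 and 1.84 TPM in CK (-4.1 ℃), 3.21, 4.43 and 8.87 TPM in CK (-5.3 ℃) and 9.44, 10.6 and 4.25 TPM in CK (9.7 ℃). DN7348_c0_g1 was at 20.9, 22.1 and 4.81 TPM in CK (-4.1 ℃), 10.1, 9.52 and 18.2 TPM in CK (-5.3 ℃) and 28.5, 25.4 and 10.6 TPM in CK (9.7 ℃). In both, replicate 3 was the low library at -4.1 and 9.7 ℃ and the high one at -5.3 ℃. DN1706_c0_g1 had the largest share of its within-group sum of squares in a single group of all 150 members, 81.4% in CK (-4.1 ℃), where it was at 15.4, 17.2 and 2.41 TPM.

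Set B was led by DN11713_c0_g1 and DN13673_c0_g1. DN11713_c0_g1 was measured in CK replicates 1, 2 and 3 at 21.4, 21.6 and 64.6 TPM at 10.2 ℃, 15.4, 17.3 and 27.9 TPM at -4.1 ℃, 21.6, 21.7 and 68.6 TPM at -5.3 ℃, and 17.4, 17.9 and 21.2 TPM at 9.7 ℃. Its ABA-100 values were 16.2, 16.7 and 15.6 TPM at 10.2 ℃, 17.4, 16.8 and 15.9 TPM at -4.1 ℃, 20.4, 21.1 and 21.2 TPM at -5.3 ℃, and 70.4, 25.2 and 25.6 TPM at 9.7 ℃. Outside the 5 libraries this unigene never left the range between 15.4 and 25.6 TPM, and in 3 of the 5 it was above 60 TPM. DN13673_c0_g1 was at 13.3, 13.1 and 47.8 TPM in CK (10.2 ℃), 10.1, 10.1 and 29.5 TPM in CK (-4.1 ℃), 16.5, 17.1 and 41.5 TPM in CK (-5.3 ℃) and 19, 21.8 and 26.2 TPM in CK (9.7 ℃). The same unigene was at 33, 39.7 and 41.1 TPM in ABA-100 (-5.3 ℃) and 76.4, 21.5 and 19 TPM in ABA-100 (9.7 ℃), so that its highest value of all 24 lay beside replicates of 21.5 and 19 TPM. DN2528_c1_g1 was at 15, 12.1 and 24.4 TPM at 10.2 ℃, 13.8, 17.2 and 51.6 TPM at -4.1 ℃, 19.1, 17.9 and 47.1 TPM at -5.3 ℃, and 12.8, 14.8 and 31.8 TPM at 9.7 ℃ in CK. DN6753_c0_g1 was at 9.51, 8.39 and 15.8 TPM at 10.2 ℃, 10.4, 15.9 and 31.9 TPM at -4.1 ℃, 12.7, 12.1 and 30.4 TPM at -5.3 ℃, and 10.7, 10.5 and 21.6 TPM at 9.7 ℃ in CK. For both, replicate 3 was the highest of the 3 CK libraries at each of the 4 temperatures.

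**Figure D3:**
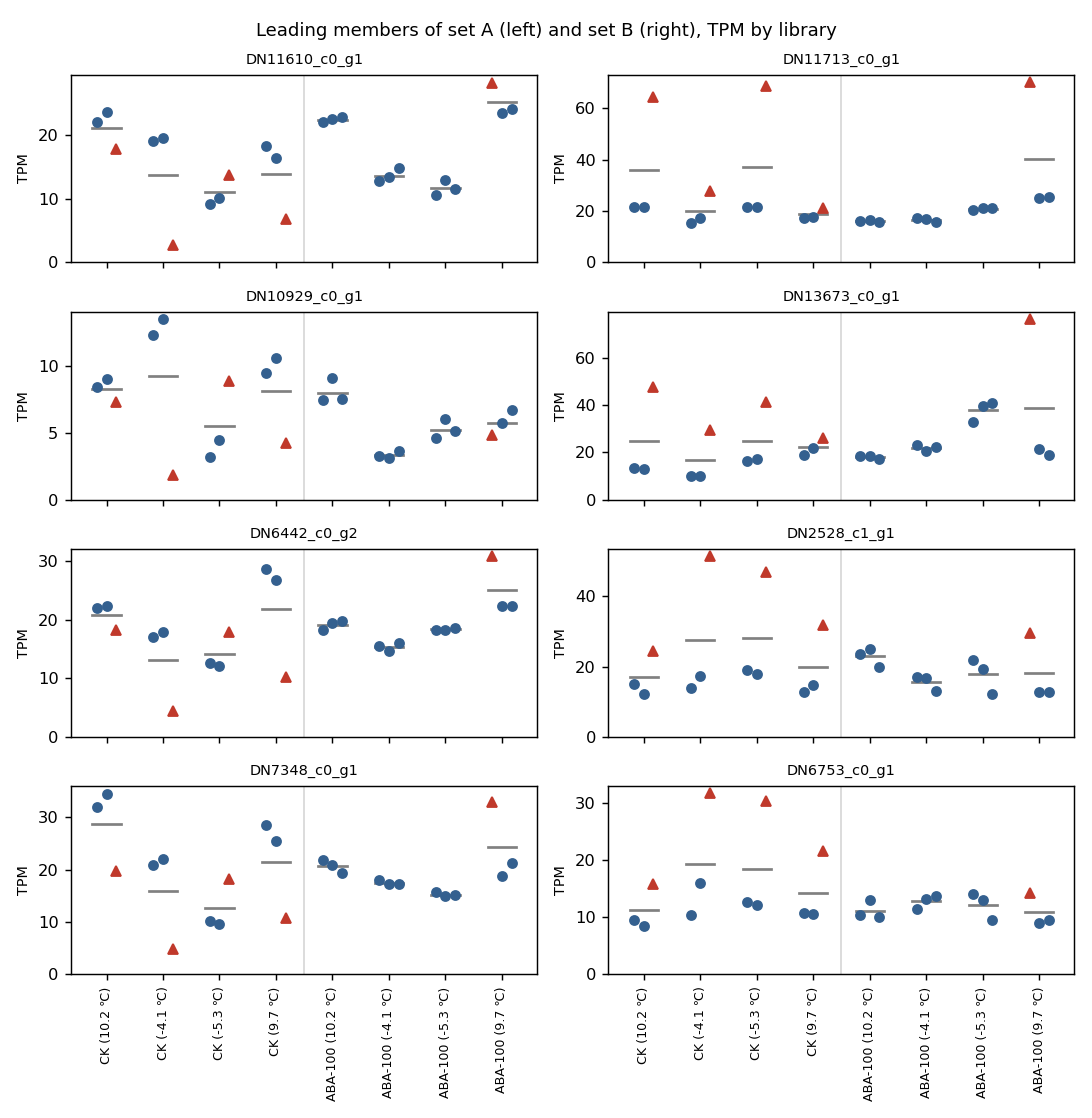
TPM of the 4 leading members of set A (left column) and of set B (right column) in each library, by group. Points are single libraries, placed from left to right as replicates 1 to 3, grey bars are group means, and red triangles are the 5 libraries that stand apart. In CK (-4.1 ℃) the triangle is the lowest point in the left column (2.68 TPM for DN11610_c0_g1) and the highest in the right column (27.9 TPM for DN11713_c0_g1).

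Without the 5 libraries the range of the group means was wider for 16 and narrower for 7 of the 23 library-bound members, with a median of 1.29 log2 units against 1.10 over all libraries. For DN11713_c0_g1 it narrowed from 1.10 to 0.62. Over the 19 remaining libraries, limma called a difference among the 8 groups for 20 of the 23 library-bound members and for 9 of the 127 scattered members, beside 65.4% of the 20604 unigenes tested. With all 24 libraries the counts were 0 of 23 and 4 of 127, beside 59.6% of 21523 unigenes, and 8 of the 150 had an unadjusted p under 0.05. The kinds were split by the spread in the same 19 libraries, which enters the test, and the rule used the group means of all 24, so nothing is read from the difference between the counts. The setting was chosen after the data had been seen. Of the 23 library-bound members, 9 had group means at least 1.5 log2 units apart in the 19 libraries and would have missed the limit of the rule. DN1706_c0_g1 had the widest range, 1.98 log2 units, from a mean of 16.3 TPM in CK (-4.1 ℃) to 3.38 TPM in ABA-100 (-5.3 ℃). DN8913_c1_g4 ranged from 38.6 TPM in CK (-5.3 ℃) to 97.7 TPM in ABA-100 (9.7 ℃), a range of 1.32 log2 units.

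The 127 scattered members varied in every group. Their median SD of 3 libraries was 0.41 log2 units in CK (-5.3 ℃) and between 0.50 and 0.58 in the other 7 groups. For the library-bound members it was 0.98 in CK (-4.1 ℃) and between 0.094 and 0.12 in the ABA-100 groups at 10.2, -4.1 and -5.3 ℃. Over all 150 members, CK (-4.1 ℃) held the largest share of the within-group sum of squares, 18.2%, and CK (-5.3 ℃) the smallest, 9.28%. In CK (-4.1 ℃) the share was 15.6% for the scattered and 41.8% for the library-bound members, and 22.0% for the other unigenes. With only 2 libraries left in CK (-4.1 ℃), that group's share was 8.05% without replicate 3, 11.9% without replicate 1 and 9.99% without replicate 2. In 29 members more than 50% of the sum of squares lay in 1 group, and 11 of these were library-bound.

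**Figure D4:**
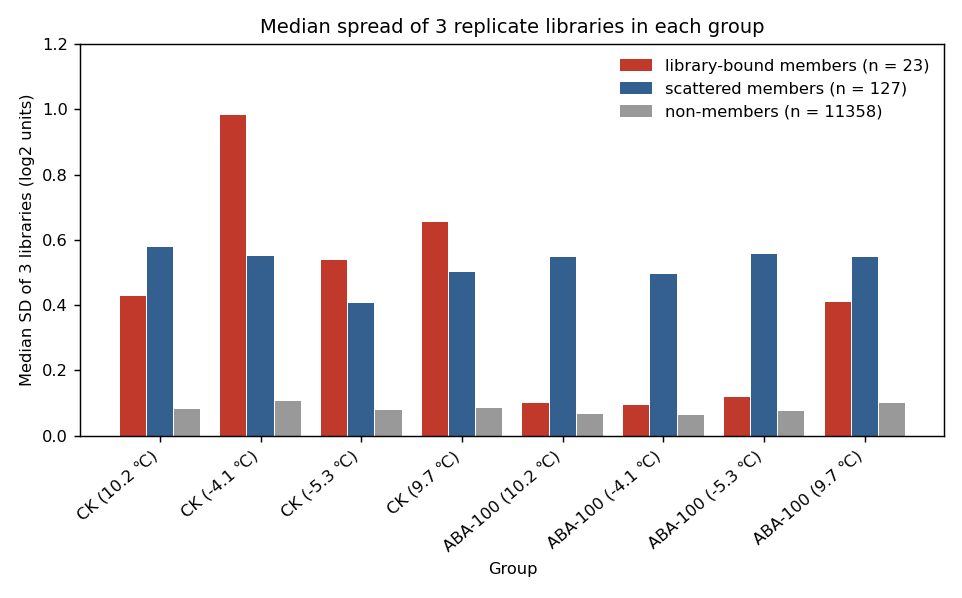
Median over unigenes of the SD of log2(TPM + 1) among the 3 libraries of each group (bars, log2 units), for the 23 library-bound members (red), the 127 scattered members (blue) and the 11358 other unigenes that met both limits (grey). The blue bars lie between 0.41 and 0.58 in all 8 groups, the red bars reach 0.98 in CK (-4.1 ℃), and the grey bars stay between 0.064 and 0.11.

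The member with the highest spread was DN13624_c0_g1, with a pooled SD of 1.94 log2 units. It was measured in CK replicates 1, 2 and 3 at 10.7, 0 and 1.06 TPM at 10.2 ℃, 0, 24.5 and 2.57 TPM at -4.1 ℃, 3.61, 1.63 and 0 TPM at -5.3 ℃, and 0, 1.65 and 3.02 TPM at 9.7 ℃. In ABA-100 it was at 2.18, 0 and 33.4 TPM at 10.2 ℃, 1.9, 0 and 31.9 TPM at -4.1 ℃, 0, 2.95 and 17.5 TPM at -5.3 ℃, and 1.08, 3.04 and 0 TPM at 9.7 ℃. It was listed at 0 in 8 of the 24 libraries and reached 33.4 TPM in another library of a group that held a 0. DN10259_c0_g3 (pooled SD 1.56) was at 0, 10.5 and 16 TPM in ABA-100 (10.2 ℃) and 18.9, 0 and 46.4 TPM in ABA-100 (-4.1 ℃). In 3 libraries it was listed at 0, and in CK (-5.3 ℃) its 3 libraries were alike at 8.97, 10.3 and 10.9 TPM. DN11565_c0_g1 (pooled SD 1.48) was at 1.12, 113 and 1.16 TPM in CK (-4.1 ℃). Its other 23 values did not exceed 24.5 TPM. In its ABA-100 groups at 10.2, -4.1 and -5.3 ℃ replicate 3 was the highest library, at 20.9, 20.8 and 24.5 TPM beside 2.22 to 6.91 TPM in replicates 1 and 2.

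DN11677_c1_g1 (pooled SD 1.34) was at 17.5, 25.1 and 0 TPM in CK (-4.1 ℃) and 7.53, 12.4 and 0 TPM in CK (-5.3 ℃). Both zeros lay in libraries that stand apart, and without the 5 libraries its pooled SD was 0.52. DN10687_c2_g1 (pooled SD 1.34) was at 0, 12.1 and 10.9 TPM in CK (10.2 ℃) and 14.2, 0 and 27.4 TPM in CK (-4.1 ℃). DN9497_c0_g1 (1.19) was at 10.4, 15.4 and 0 TPM in ABA-100 (10.2 ℃) and 0, 10.8 and 6.14 TPM in ABA-100 (-5.3 ℃). In each of these a 0 stood beside libraries of the same group at more than 6 TPM. DN12000_c0_g1 (1.18) was at 8.59, 0 and 17.5 TPM in ABA-100 (-4.1 ℃). DN10435_c0_g1 (1.18) was at 9.22, 0 and 9.76 TPM in ABA-100 (9.7 ℃). DN20686_c0_g1 (1.13) was at 13.4, 0 and 17.8 TPM in CK (10.2 ℃). In all 3, replicate 2 was the library at 0. DN4597_c2_g1 (1.10) was the most abundant of the 10 members with the highest spread, and 76.3% of its within-group sum of squares came from CK (9.7 ℃), where it was at 22.6, 0 and 27.2 TPM. With a pseudocount of 0.1 in place of 1, the pooled SD of 9 of these 10 rose, to between 1.72 and 3.5, and that of DN11565_c0_g1, which was never at 0, changed less.

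**Figure D5:**
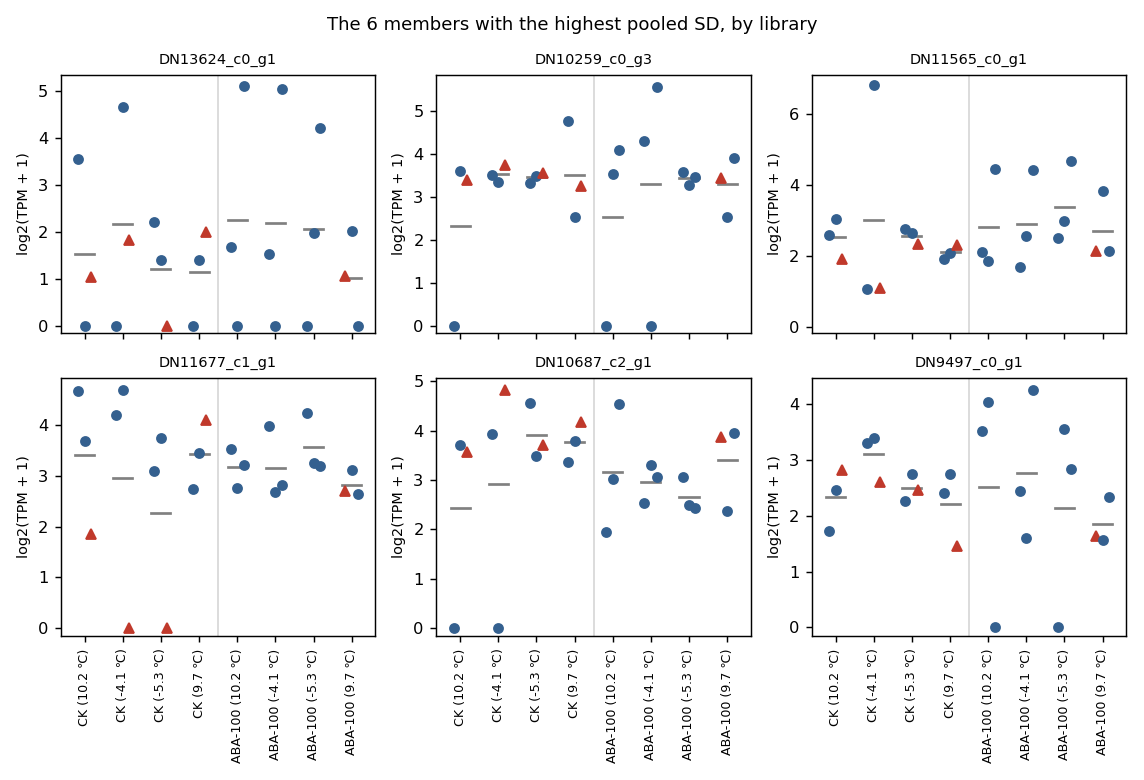
log2(TPM + 1) of the 6 members with the highest pooled SD in each library, by group (points, replicates 1 to 3 from left to right, grey bars for group means, red triangles for the 5 libraries that stand apart). Points at 0 are libraries in which the unigene was listed at 0 TPM. DN13624_c0_g1 has 8 such points, and DN11565_c0_g1 has a single high point in CK (-4.1 ℃), at 113 TPM.

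Zeros were found in 12 of the 150 members, all of them scattered, and in 0 of the 11358 other unigenes. In a unigene with a mean of at least 5 TPM, a 0 itself widens the spread that the rule ranks. Nothing is therefore read from this contrast. The 10 members with the highest spread included 9 of the 12. In 2 low members, named after their values were seen, values lay in separate bands. DN10343_c0_g1, which was never at 0, had 5 libraries between 2.06 and 2.31 TPM and 6 between 3.58 and 4.30 TPM, with the next value at 5.79 TPM. DN25127_c1_g1 was at 0 in CK (10.2 ℃) replicate 3, had 3 libraries between 2.87 and 3.14 TPM, and then no value below 5.48 TPM. The number of reads behind each of these values is unknown, and whether a band holds a fixed number of reads was not tested. Whether a listed 0 is an absence of reads or an allocation of shared reads to another unigene was likewise not tested.

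High spread was not limited to weakly expressed unigenes, but few members were abundant. A mean over 50 TPM was found in 5 of the 150 members, against 2700 of the 11358 other unigenes. These others include the most abundant unigenes, which were left out when the members were taken. DN16641_c1_g2, the most abundant member with a mean of 102 TPM, was at 59.9, 115 and 179 TPM at 10.2 ℃, 104, 193 and 168 TPM at -4.1 ℃, 156, 151 and 117 TPM at -5.3 ℃, and 51.7, 78.7 and 115 TPM at 9.7 ℃ in CK. In ABA-100 it was at 61, 48.3 and 71.4 TPM at 10.2 ℃, 47.2, 58.6 and 59.7 TPM at -4.1 ℃, 76.7, 157 and 59.4 TPM at -5.3 ℃, and 143, 67.6 and 119 TPM at 9.7 ℃. DN17896_c0_g1 (mean 81.8 TPM) ranged over 23.8 to 174 TPM and DN9838_c0_g1 (mean 55.0 TPM) over 14 to 121 TPM. The latter was at 79.5, 38.3 and 16.4 TPM in CK (10.2 ℃) and at 60.8, 43.4 and 14 TPM in ABA-100 (10.2 ℃). DN1775_c1_g3 (mean 53.2 TPM), a scattered member of set A, ranged over 18.6 to 83 TPM. DN8913_c1_g4 (mean 54.4 TPM) was the only library-bound member over 50 TPM. It was at 59.6, 64.6 and 16.6 TPM in CK (-4.1 ℃) and 43.9, 43.2 and 45.6 TPM in ABA-100 (-4.1 ℃), so that 1 library of CK differed from replicates that were close together.

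The deviations of most scattered members did not go together, although 5 of them were in set A. Among pairs of scattered members 2.15% had a correlation over 0.5, against 40.3% among pairs of library-bound members and 9.33% among pairs of the other unigenes. These shares describe 24 libraries whose deviations sum to 0 within each group, and no test was made. The library-bound members were defined by deviations that lie mostly in the same 5 libraries. Correlations among them follow in part from that split, so nothing is read from 40.3% against 2.15%. In the 5 libraries that stand apart, between 89 and 106 of the 127 scattered members lay within 1 log2 unit of the other replicates, and both directions occurred in each library. Without these libraries their median pooled SD was 0.59.

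Whether a unigene that varied in one treatment also varied in the other was read in libraries that the choice had not used. When the rule was applied to the 12 CK libraries alone, 150 of the 11959 unigenes ranked were chosen. Their median pooled SD was 0.61 log2 units in the 12 ABA-100 libraries, against 0.093 for the rest of those ranked. Of the 150, 128 (85.3%) were among the 10% with the highest spread in ABA-100. When the choice was made in ABA-100 alone, from 11679 unigenes ranked, the median in CK was 0.61 against 0.11 for the rest. Of these 150, 145 (96.7%) were among the highest 10%. The lists were not the same, since 45 unigenes (30.0% of each list) were in both. The CK list held 21 of the 23 library-bound and 52 of the 127 scattered members, and the ABA-100 list held 2 and 84 of them.

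The Trinity cluster of a member, given by the first part of its identifier, often held other unigenes. Of the 150 members, 78 (52.0%) had a partner of at least 1 TPM in the same cluster, against 42.8% of the other unigenes. The deviations of a member and its most abundant partner had a median correlation of 0.06 over the 24 libraries, which for 2 members was below -0.5 and for 6 above 0.5. In 50 of the 78, the summed TPM of the cluster had a pooled SD below 0.5 of the member's own. Many partners were far more abundant than the member, with a mean of 1546 TPM for that of DN8725_c4_g1, so such a sum mostly shows the partner. The members were chosen for a high SD and the count was not made for the other unigenes, so nothing is read from it. DN11677_c1_g1 and its partner DN11677_c0_g6 (mean 10.2 TPM) deviated in opposite directions (r = -0.71), and the SD fell from 1.34 for the member to 0.52 for the sum. DN2528_c1_g1 and DN2528_c0_g2 (mean 23.3 TPM) deviated together (r = 0.78). The partner of DN10687_c2_g1 had a mean of 362 TPM, so that the sum, with an SD of 0.15, mostly shows the partner. A cluster shared by 2 members occurred once, with DN12479_c1_g1 and DN12479_c1_g2 (means 8.72 and 5.65 TPM, r = 0.39). Reads of near-identical transcripts may be divided differently in each library, so members with a partner are uncertain in this respect, and its part in their spread was not tested.

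The study sampled the same seedlings at each stage, and a replicate number could mark the same plants through the frost, although no source says so. A test of replicate number within CK and within ABA-100 was therefore made with limma over 21523 unigenes. The same deviations entered the rule, so the members' count is a description beside the background. With the numbers of the titles, the test called 3 of the 150 members and 0.107% of all unigenes tested. All 3 were library-bound members of set B, namely DN2528_c1_g1 (adjusted p = 0.030), DN28632_c0_g1 (adjusted p = 0.041) and DN6753_c0_g1 (adjusted p = 0.041), by limma with Benjamini-Hochberg adjustment. Within CK, replicate 3 exceeded replicate 1 by 1.25 log2 units in DN2528_c1_g1, by 1.13 in DN28632_c0_g1 and by 1.09 in DN6753_c0_g1. In ABA-100 the estimate for replicate 3 minus replicate 1 was -0.64, -0.09 and -0.21 in the same order. DN4085_c1_g2 (adjusted p = 0.059), DN13264_c0_g2 (0.068) and DN12000_c0_g1 (0.12) came next and did not pass. With the order of the column codes in ABA-100 (9.7 ℃), limma called 3 members and 0.172% of all unigenes. These were DN28632_c0_g1 (adjusted p = 0.024), DN6753_c0_g1 (adjusted p = 0.040) and DN13264_c0_g2 (adjusted p = 0.047), whereas DN2528_c1_g1 did not pass (adjusted p = 0.11). The ABA-100 estimates were then 0.23, 0.08 and 0.27 for the members called and -0.06 for DN2528_c1_g1. With the numbers of the titles and without the 5 libraries, limma called 0 of 150 members and 0 of the 20604 unigenes tested. In that fit 21 members were at an unadjusted p under 0.05, against 29 over all libraries. The count of members called was 12 without CK (-5.3 ℃) replicate 3, beside 615 of 21344 unigenes. It was 7 without ABA-100 (9.7 ℃) replicate 1, beside 158 of 21267. Without any 1 of 11 other libraries it was 0, beside 2 to 11 of all unigenes. Since replicate 3 of all 4 CK groups stood apart over the unigenes that are not members as well, replicate number in CK and these libraries cannot be told apart. The p-values measure the spread between these libraries, and the sources used here do not say whether a library held 1 leaf, 1 seedling or a pool.

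Differences between ABA-100 and CK were called for few members, with limma, where a call needed an adjusted p of at most 0.05 and a log2 change of more than 1 in either direction. The rule limited the group means, so the counts and the shares of all unigenes are given side by side and nothing is read from them. Each comparison also rests on the group names of the labels, some of which differ from the study's volcano plots. At 10.2 ℃, before the spray by the labels, 3 of 150 were called (1 higher and 2 lower in ABA-100), beside 4.94% of all unigenes. The counts were 6 at -4.1 ℃ (2 higher, 4 lower, beside 6.26%), 3 at -5.3 ℃ (all lower, beside 1.82%) and 2 at 9.7 ℃ (both higher, beside 4.01%). Without the 5 libraries 0 were higher and 4 lower at 10.2 ℃ (beside 5% of 20604 unigenes), and 3 and 5 at -4.1 ℃ (beside 7.23%). At -5.3 ℃ 4 were higher and 2 lower (beside 2.07%), and at 9.7 ℃ 3 and 2 (beside 4.23%). The few calls at these last 2 temperatures then did not lie on one side. With replicate number as a block 2 were higher and 4 lower at -5.3 ℃ (beside 320 of 21523 unigenes), and 4 and 3 at 9.7 ℃ (beside 970). Median-of-ratios scaling gave 2 and 1 at 10.2 ℃ (beside 1098 of 21427), 0 calls at -5.3 ℃ (beside 302), and 2 and 2 at 9.7 ℃ (beside 792). The median log2 fold change of the members was -0.19, -0.10, -0.31 and 0.03 in this order. Over all unigenes tested it was -0.14, -0.09, -0.15 and 0.04, and median-of-ratios scaling set it to 0. That scaling brings the median to about 0 whatever the source of a shift. The source of this shift of up to 0.15 log2 units was not tested.

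The members called at 10.2 ℃ were DN11475_c0_g1, with a log2 fold change of 1.4 (SE 0.53, adjusted p = 0.044 in limma), DN854_c3_g1 with -1.26 (SE 0.37, adjusted p = 0.012) and DN9313_c0_g1 with -1.15 (SE 0.39, adjusted p = 0.027). DN11475_c0_g1 was at 9.86, 5.1 and 2.32 TPM in CK (10.2 ℃) and 9.73, 18.6 and 18.2 TPM in ABA-100 (10.2 ℃), and the groups overlapped. Without CK (10.2 ℃) replicate 3 its fold change was 0.97 (adjusted p = 0.21). DN854_c3_g1 was at 24.5, 28.6 and 23.4 TPM in CK (10.2 ℃) and 5.5, 11.6 and 15.4 TPM in ABA-100 (10.2 ℃), without overlap. DN9313_c0_g1 was also called at -5.3 ℃, with -1.11 (SE 0.39, adjusted p = 0.040). At -4.1 ℃ DN16641_c1_g2 was lower in ABA-100 by an estimate of -1.44 (SE 0.39, adjusted p = 0.0075). Its 3 CK libraries lay between 104 and 193 TPM and its 3 ABA-100 libraries between 47.2 and 59.7 TPM, without overlap. DN28632_c0_g1 was higher, by 1.10 (SE 0.40, adjusted p = 0.041), although replicate 3 of CK, at 9.68 TPM, lay inside the ABA-100 range of 9.35 to 9.83 TPM. DN12098_c0_g1 was higher by 1.05 (SE 0.37, adjusted p = 0.035), and DN12766_c0_g1 was lower by an estimate of -1.33 (SE 0.40, adjusted p = 0.015). Without CK (-4.1 ℃) replicate 1 the former was at 0.81 (adjusted p = 0.15), and without ABA-100 (-4.1 ℃) replicate 1 the latter was at -1.08 (adjusted p = 0.078).

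At -5.3 ℃ DN8873_c0_g1 was lower in ABA-100, with a log2 fold change of -1.37 (SE 0.44, adjusted p = 0.025 in limma), from 10.6, 7.48 and 6.72 TPM in CK (-5.3 ℃) and 7.82, 0.59 and 2.13 TPM in ABA-100 (-5.3 ℃). Without ABA-100 (-5.3 ℃) replicate 2, at 0.59 TPM, the estimate was -0.80 (adjusted p = 0.17). DN1706_c0_g1 was lower by an estimate of -1.12 (SE 0.40, adjusted p = 0.042), and without CK (-5.3 ℃) replicate 3 by -0.92 (adjusted p = 0.15). At 9.7 ℃ DN8913_c1_g4 was higher in ABA-100 by 1.30 (SE 0.36, adjusted p = 0.013), with 44.1, 47.9 and 20.5 TPM in CK (9.7 ℃) and 71.7, 96.1 and 99.2 TPM in ABA-100 (9.7 ℃). Without CK (9.7 ℃) replicate 3 its estimate was 0.92 (adjusted p = 0.088). DN12484_c0_g2 was higher by 1.2 (SE 0.41, adjusted p = 0.039), and without CK (9.7 ℃) replicate 2 by 0.85 (adjusted p = 0.19). A difference among any of the 8 groups was called for 4 members, DN4484_c5_g1, DN9313_c0_g1, DN16641_c1_g2 and DN854_c3_g1, beside 59.6% of all unigenes. The members' count was 18 without CK (-4.1 ℃) replicate 3, beside 13215 of 21365 unigenes. It was 10 without replicate 3 of CK (-5.3 ℃) or of CK (9.7 ℃), beside 12896 of 21344 and 12790 of 21420. Without ABA-100 (-5.3 ℃) replicate 2 it was 2, beside 12460 of 21387. Each of the 11 differences described above for single members at one temperature, DN9313_c0_g1 at -5.3 ℃ aside, lost its call under 1 to 11 of 29 alternatives.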

How the data were processed

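Total RNA of the leaves was extracted by the authors with TRIzol and made into libraries, for which the labels name a SMARTer kit and the study's methods a TruSeq kit. Reads were trimmed with SeqPrep and Sickle, unigenes were assembled with Trinity, and abundance was estimated with RSEM; versions are not given in the sources used here. The deposited values are TPM per unigene, scaled by the authors for transcript length and library total. The study lists the clean reads of each library, which were not used here. The number of reads behind a single value is unknown, and no counting error is given. All 24 columns were used, each assigned by its label.

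log2(TPM + 1) was taken. The members, the rule and the lists were chosen with earlier results of these data known. Tests used limma 3.58.1 in R 4.3.3, with a trended prior variance, on the 21523 unigenes that reached 1 TPM in 3 or more libraries, with 1 mean per group over all 24 libraries and Benjamini-Hochberg adjustment. Replicate number within treatment was added for its own test. The fit was tested on simulated data. Named unigenes were the 10 members of highest spread, 3 on each side of the limit, the 5 most abundant, the 6 with the smallest p for replicate number, 4 leading each set, pairs within a cluster, up to 2 called in each direction per contrast, and the 2 with most zeros. DN1706_c0_g1 and DN8913_c1_g4 in the comparison of 19 libraries, DN4870_c0_g3, DN6221_c0_g3, DN10343_c0_g1, DN25127_c1_g1, DN4484_c5_g1 and the partners in a cluster were named after their values were seen. Alternatives were the pseudocount, scaling, filters, limits of the rule, each library left out, a replicate block, the replicate order of the column codes and, added after seeing the data, the 5 libraries left out. Python 3.11.15 and matplotlib 3.10.9 were used.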

Additional observations from a re-analysis of the deposited data

Results flagged for a closer look

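DN11713_c0_g1 and DN8913_c1_g4 differed between stages in the comparison of ABA-100 with CK. For DN11713_c0_g1 the log2 fold change at 9.7 ℃ exceeded that at 10.2 ℃ by 1.80 (SE 0.61, adjusted p = 0.035, interaction contrast in limma). It was 1.32 (adjusted p = 0.11) without ABA-100 (9.7 ℃) replicate 1 and 1.28 (adjusted p = 0.10) without CK (10.2 ℃) replicate 3, both of which stand apart from their groups. For DN8913_c1_g4 the difference was 1.74 (SE 0.51, adjusted p = 0.018), and 1.36 (adjusted p = 0.051) without CK (9.7 ℃) replicate 3. Without the 5 libraries that stand apart the differences were 0.89 (adjusted p = 7.69e-07 in limma) and 1.33 (adjusted p = 5.85e-08). Both unigenes are library-bound, so a small spread in the remaining libraries was fixed by the split. That spread enters the test, and nothing is read from these 2 adjusted p-values. Median-of-ratios scaling gave 1.57 (adjusted p = 0.078) and 1.5 (adjusted p = 0.056). The causes of these differences were not tested.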

How the results depend on the processing

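No difference called for a named unigene reversed under an alternative. The members' median log2 fold change at 9.7 ℃, 0.03, became -0.03 with median-of-ratios scaling, -0.02 without ABA-100 (9.7 ℃) replicate 1 and -0.03 without the 5 libraries that stand apart. Of the 150 members, between 121 and 139 remained when 1 library was left out, 116 with a pseudocount of 0.1 and 140 with median-of-ratios scaling. Fewer remained with a minimum mean of 1 TPM (13), group means within 1 log2 unit (58), the CK libraries alone (73), the ABA-100 libraries alone (86) and without the 5 libraries that stand apart (89). The lower minimum admits weakly expressed unigenes to the ranking. Without the 5 libraries, CK (-4.1 ℃) held 11.2% of the sum of squares and the largest set had 7 members. With 1 library left out, that share ran from 8.05% to 19.8%, the number of members with over 50% in 1 group from 26 to 36, and the largest set from 12 to 18.

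Called members in the ABA-100 and CK comparisons numbered 2 to 5 at 10.2 ℃, 1 to 8 at -4.1 ℃, 1 to 7 at -5.3 ℃ and 2 to 4 at 9.7 ℃ with 1 library left out. Of the 21151 to 21420 unigenes tested, 1004 to 1090, 1291 to 1456, 337 to 403 and 810 to 939 were called in the same order. The count of 5 at 10.2 ℃ was without CK (10.2 ℃) replicate 1. At -4.1 ℃ it was 1 without ABA-100 (-4.1 ℃) replicate 1 and 3 without its replicate 2 or 3. At -5.3 ℃ it was 1 without CK (-5.3 ℃) replicate 2 or ABA-100 (-5.3 ℃) replicate 3, 5 without CK (10.2 ℃) replicate 3, ABA-100 (10.2 ℃) replicate 3 or ABA-100 (-4.1 ℃) replicate 2, and 7 without ABA-100 (-4.1 ℃) replicate 3. At 9.7 ℃ it was 4 without CK (-5.3 ℃) replicate 3. Any group difference called 12149 to 13215 and replicate number 2 to 615 of all unigenes tested. Among the members, any group difference gave 2 to 18 and replicate number 0 to 12. The former was 18 without CK (-4.1 ℃) replicate 3, 10 without replicate 3 of CK (-5.3 ℃) or CK (9.7 ℃), 2 without ABA-100 (-5.3 ℃) replicate 2, 8 without CK (-4.1 ℃) replicate 1 or 2 or ABA-100 (-5.3 ℃) replicate 3, and 7 without CK (9.7 ℃) replicate 2. The latter was 12 without CK (-5.3 ℃) replicate 3, 7 without ABA-100 (9.7 ℃) replicate 1, 5 without ABA-100 (9.7 ℃) replicate 2 or 3, 1 without CK (9.7 ℃) replicate 3 or replicate 2 of ABA-100 (-4.1 ℃) or ABA-100 (-5.3 ℃), and 0 without replicate 1 or 2 of CK (9.7 ℃), 2 of CK (10.2 ℃), 2 or 3 of CK (-4.1 ℃), 1 of CK (-5.3 ℃), 2 or 3 of ABA-100 (10.2 ℃), 3 of ABA-100 (-4.1 ℃), or 1 or 3 of ABA-100 (-5.3 ℃).

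Median-of-ratios scaling gave 0 members at -5.3 ℃ (9 at an unadjusted p under 0.05), 4 at 9.7 ℃ and 2 for any group difference. Of the 21427 unigenes tested, 302, 792 and 11356 were called in this order. Without a filter on low values, the counts were 3 at -4.1 ℃, 1 at -5.3 ℃, 1 at 9.7 ℃ and 1 for replicate number, beside 1318, 355, 854 and 13 of 33255 unigenes. The correlation of the members' deviations between same-numbered libraries ran from -0.19 to 0.37 in CK (6 of 18 pairs over 0.1) and from -0.14 to 0.28 in ABA-100 (4 of 18). Among the 5 libraries that stand apart its median was 0.17, with 6 of 10 pairs over 0.1. Of 24 libraries, 10 correlated best with their own number (9 by the column codes), and 19 over all unigenes tested (14 by the codes). Each library could match any of 3 numbers. As not every pair was over 0.1, the numbers were not taken as pairs in the main fits, which treat the libraries of different stages as independent. The study sampled the same seedlings at each stage, so those libraries may not be independent. Whether the numbers mark seedlings cannot be told. With replicate number as a block the counts were 3 at -4.1 ℃, 6 at -5.3 ℃, 7 at 9.7 ℃ and 9 for any group difference. Of the 21523 unigenes tested, 1295, 320, 970 and 10950 were called in this order. With 1 replicate number across all groups, or nested in the digit of the column codes, replicate number called 0 members and 0 of all unigenes tested. The same held in limma without the 5 libraries, and 15, 18 and 21 members were at an unadjusted p under 0.05 in this order. Without those libraries the counts were 6 at -5.3 ℃, 5 at 9.7 ℃ and 29 for any group difference, beside 2.07%, 4.23% and 65.4% of all unigenes. The causes of these shifts were not tested. The number of reads per unigene is unknown, and differences among members of few TPM are limited by it.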
